A study of Mus musculus with 22 samples.

Results

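The liver makes most of the proteins that clot blood and much of the complement system, and 36 genes for such proteins and for plasma carriers were followed along the course of pancreatic islet tumours in RIP1-Tag2 (RT2) mice. A gene was measured where the deposited table held a probe set with that gene symbol alone, and the brightest on average was taken where there were several. This gave 34 of the 36 genes, among 19938 genes in all. The complement component gene C3 had no probe set of its own symbol, and Klkb1, plasma prekallikrein, only 1 shared with a second gene, so neither was analysed here.

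The study placed RNA from 22 samples on Affymetrix Mouse Gene 1.0 ST arrays, with 3 normal islet, 3 hyperplastic islet, 3 angiogenic islet, 5 islet tumour, 5 met-like primary and 3 liver metastasis samples, each named here by its title. Normal islets too are labelled as RT2, as is every other sample. In RT2 mice an insulin promoter drives a viral oncoprotein in beta cells. The labels give no age or treatment, nor whether different samples are different animals, nor how a primary tumour was classed as met-like. P-values thus measure the spread between these samples, which may in part be technical. Every liver metastasis title begins with I, while primary tumour titles begin with I, II or III, and the labels leave these codes unexplained.

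Clotting is a chain of proteases circulating as inactive precursors. Contact factors and tissue factor start it, thrombin ends it by cutting fibrinogen into fibrin, antithrombin and the protein C system restrain it, and plasmin dissolves the clot. Complement runs on a similar principle, from pattern recognition by mannose-binding lectin through a convertase to a membrane pore of the late components. Hepatocytes are the main source of nearly all these proteins, and several of them, such as haptoglobin, hemopexin and fibrinogen, are acute phase proteins whose genes respond to interleukin signals.

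As a check of the tissue labels, the mean of 9 beta cell genes lay between 11.58 and 11.63 log2 intensity in normal islets, 11.38 and 11.48 in hyperplastic islets, 11.05 and 11.36 in angiogenic islets, 10.52 and 10.99 in islet tumours, 8.44 and 9.06 in met-like primaries and 9.01 and 9.61 in liver metastases. Array medians ran from 7.08 to 7.22, and the correlation between any pair of arrays, at most 0.9951, pointed to no duplicate. Some arrays differed in the mean of 6 genes of acinar cells, the enzyme-secreting cells around the islets. This mean was 9.33 in Normal2007, against 12.33 and 12.92 in the other normal islets. In III-8016-MLP it was 10.68, against 12.43 to 12.95 in the other met-like primaries. A list of 14 measured hepatocyte enzyme genes, which encode enzymes of hepatocyte metabolism and are no members, averaged 8.64, 8.16 and 7.91 in the liver metastases I-9820-Met, I-9821-Met and I-9822-Met, and 6.69 and 7.05 in the samples Angiogenic2006 and Angiogenic2007. Its range over the other 17 arrays was 5.59 to 6.23. These 5 arrays are named beside the results they touch. In bulk RNA, fewer cells of a type and less RNA per cell cannot be told apart.

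The genes of the fibrinogen chains lie side by side on mouse chromosome 3 in the order Fgg, Fga, Fgb, and C8b and C8a, which encode the beta and alpha chains of complement C8, are neighbours on chromosome 4. C8b and C8a moved together in some comparisons and apart in others. The 200 bases before the start of these genes and of Fgb and Fgg are shown. Those of Hpx, the member with the largest difference below, are added (RefSeq, GRCm38.p6, strand of the gene, 5′ to 3′). Capitals mark matches, on either strand, to GTTAAT, an HNF1 motif, or to TTGCNNAA, a C/EBP site, both bound by factors active in liver.
Fgb (chr3:83049864-83050063, minus strand): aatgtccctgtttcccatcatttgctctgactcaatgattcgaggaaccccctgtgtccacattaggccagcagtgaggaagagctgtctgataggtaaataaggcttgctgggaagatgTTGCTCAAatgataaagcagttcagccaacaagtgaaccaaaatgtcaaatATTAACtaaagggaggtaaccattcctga
Fgg (chr3:83007524-83007723, plus strand): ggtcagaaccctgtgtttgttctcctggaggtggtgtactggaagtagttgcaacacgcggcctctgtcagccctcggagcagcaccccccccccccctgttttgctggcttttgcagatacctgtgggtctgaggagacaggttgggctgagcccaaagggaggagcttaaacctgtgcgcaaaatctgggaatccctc
Hpx (chr7:105600117-105600316, minus strand): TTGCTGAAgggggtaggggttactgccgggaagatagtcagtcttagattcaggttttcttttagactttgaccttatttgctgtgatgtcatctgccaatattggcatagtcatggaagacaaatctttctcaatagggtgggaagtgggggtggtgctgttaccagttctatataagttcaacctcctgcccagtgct
C8a (chr4:104876399-104876598, minus strand): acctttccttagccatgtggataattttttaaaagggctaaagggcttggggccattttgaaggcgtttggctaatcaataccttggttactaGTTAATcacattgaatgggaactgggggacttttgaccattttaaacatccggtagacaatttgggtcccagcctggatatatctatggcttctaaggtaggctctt
C8b (chr4:104766117-104766316, plus strand): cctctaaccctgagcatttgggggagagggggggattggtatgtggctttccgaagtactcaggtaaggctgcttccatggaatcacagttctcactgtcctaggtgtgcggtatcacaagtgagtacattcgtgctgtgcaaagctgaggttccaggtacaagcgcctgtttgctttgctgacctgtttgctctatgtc
Over the full window of 250 bases before to 50 after the start, 27 of the 34 genes had 1 promoter in the table. GTTAAT was in 7 of these 27 (25.9%), namely F13b, F2, Fga, Fgb, C8b, C8a and Pzp, against 6.14% of 12977 genes, the C8b match lying outside the stretch shown. TTGCNNAA was in 9 (33.3%), among them Fga, Fgb, Hpx, Ahsg and Serpinc1, against 9.73% of genes. The FOXA motif TGTTTAC was in 2 (7.41%, against 3.11% of genes), the HNF4 motif CAAAGTCCA in 0 (against 0.462%) and the TATA box TATAAA in 1 (3.7%, against 12.9%). A match describes the letters in the window and is not a measured binding site.

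Liver metastases were compared with met-like primaries to ask how tumours that lay in liver differed from pancreatic tumours of the class named for its likeness to metastases. All but 1 of the 34 genes were higher in liver metastases, across fibrinogen, clotting proteases, inhibitors, fibrinolysis, complement and carriers. The largest differences were those of the heme carrier gene Hpx and the fibrinogen chain genes Fgg and Fgb, at 5.17, 4.76 and 4.75 on the log2 scale, which for Fgb is 27.0-fold. Pros1, which encodes the vitamin K-dependent protein S, was the exception. By limma's moderated test with Benjamini-Hochberg adjustment over all 19938 genes, and a threshold of 0.05 on the adjusted p, 33 of 34 were called higher and 0 lower, with 0 lower also at an unadjusted p below 0.05. Of all genes, 15.7% were called, 7.8% higher and 7.87% lower. The median difference of the 34 was 2.18 on the log2 scale, against -0.01 over all genes. Of the members, 28 differed by more than 1, 19 by more than 2 and 7 by more than 4 log2 units. Every metastasis array lay above every met-like primary array for 32 of the 34, as it did for 11.4% of all genes.

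**Figure D1:**
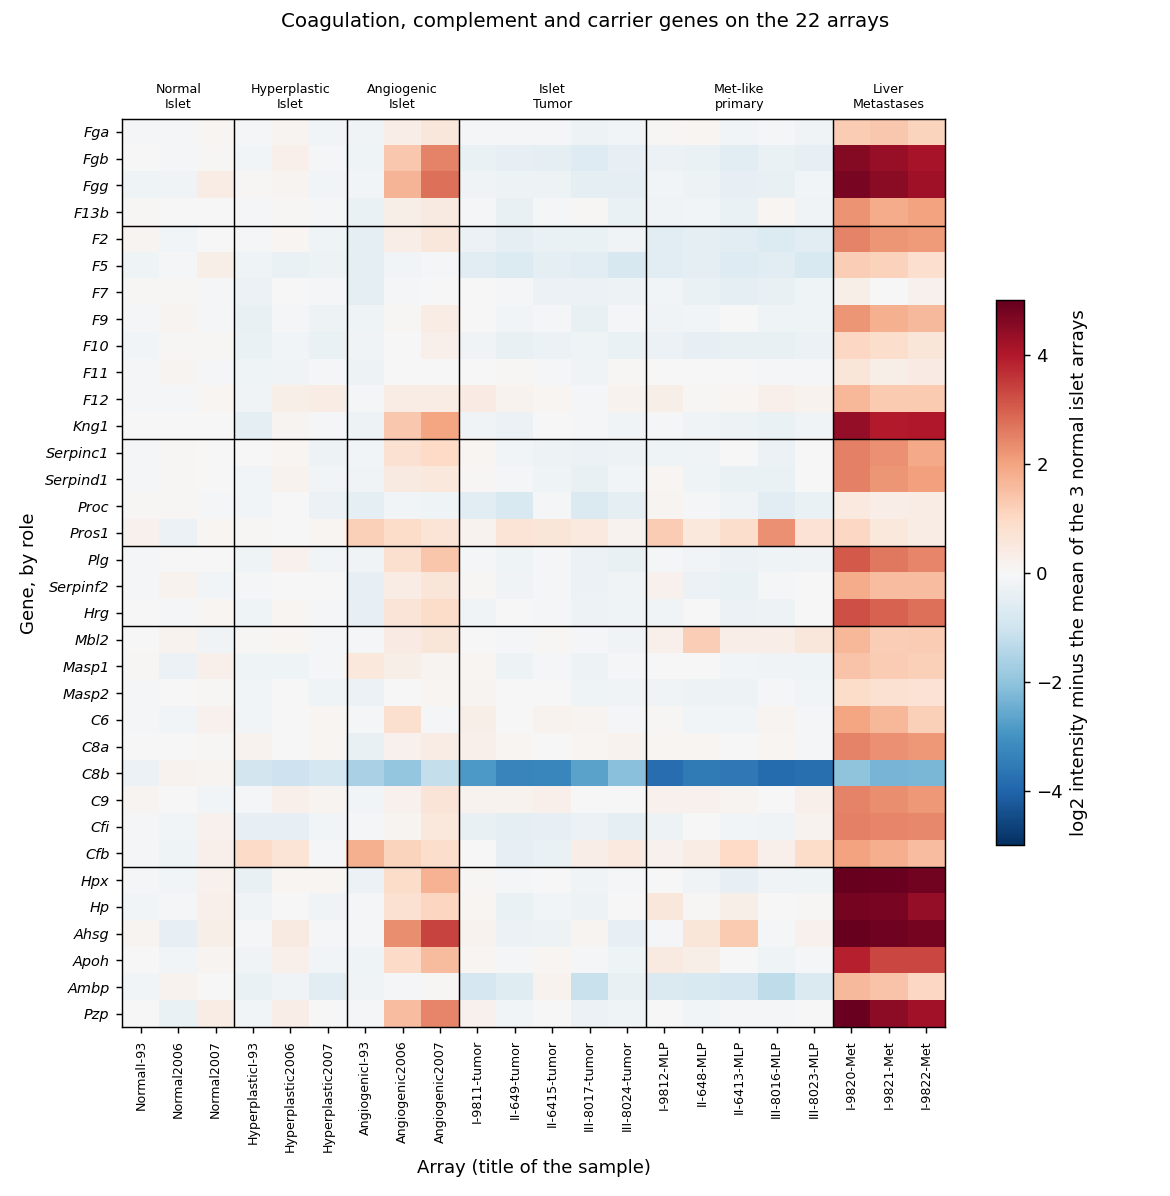
Level of each of the 34 genes (rows, grouped by role) on each of the 22 arrays (columns, by tissue label), as log2 intensity minus the mean of the 3 normal islet arrays. Red, higher than in normal islets, fills the 3 liver metastasis columns and appears for part of the genes in Angiogenic2006 and Angiogenic2007, while the row of C8b is blue from hyperplastic islets onward.

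All 4 genes of the fibrin clot were higher in liver metastases, with a median difference of 3.47. Fgb, the fibrinogen beta chain, measured 10.88, 10.65 and 10.41 log2 intensity in the liver metastases, against 5.99, 5.95, 5.73, 5.95 and 5.85 in the met-like primaries. Fgg, the gamma chain, measured 10.13, 9.92 and 9.62 in the liver metastases, against 5.24, 5.14, 4.98, 5.03 and 5.24 in the met-like primaries. The metastases were all far above the primaries for both chains, and the differences were 4.75 ± 0.33 (SE, adjusted p = 1.09e-09) for Fgb and 4.76 ± 0.35 (adjusted p = 3.18e-09) for Fgg. F13b, the carrier subunit of the fibrin-crosslinking factor XIII, had 7.27, 6.85 and 7.01 in the liver metastases, against 4.82, 4.86, 4.67, 5.10 and 4.84 in the met-like primaries, again without overlap (2.18 ± 0.14, adjusted p = 4.41e-10). The Fga probe set, for the alpha chain, differed by less, 1.29 ± 0.12 (adjusted p = 8.61e-08). Since levels of different probe sets cannot be set against each other, the smaller difference of Fga describes its probe set only.

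All 8 measured clotting proteases, cofactors and contact factors were higher in liver metastases, by 0.47 to 4.33. Kng1, the kininogen that carries prekallikrein to surfaces and releases bradykinin, measured 9.60, 9.18 and 9.24 in the liver metastases, against 5.11, 5.04, 4.97, 4.90 and 5.05 in the met-like primaries. F2, prothrombin, measured 9.16, 8.86 and 8.78 in the liver metastases, against 6.13, 6.22, 6.09, 5.99 and 6.10 in the met-like primaries. F9, the protease missing in hemophilia B, measured 6.79, 6.37 and 6.21 in the liver metastases, against 4.43, 4.44, 4.57, 4.39 and 4.39 in the met-like primaries. The groups were separated for each of these genes, and the spread among the primaries was small beside the gap. The differences were 4.33 ± 0.28 for Kng1 (adjusted p = 5.54e-10), 2.83 ± 0.15 for F2 (adjusted p = 2.61e-11) and 2.01 ± 0.13 for F9 (adjusted p = 2.82e-10). F5, a cofactor, differed by 1.66, and the proteases F12 and F10 by 1.23 and 1.18. F7, which with tissue factor starts clotting, and F11 were the smallest of the class at 0.48 ± 0.11 (adjusted p = 0.00393) and 0.47 (adjusted p = 0.000423).

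Of the anticoagulants, 3 of 4 were higher in liver metastases. Serpind1, heparin cofactor II, had 9.19, 8.87 and 8.72 in the liver metastases, against 6.76, 6.44, 6.32, 6.35 and 6.63 in the met-like primaries. Serpinc1, antithrombin, had 8.98, 8.75 and 8.38 in the liver metastases, against 6.26, 6.31, 6.46, 6.17 and 6.48 in the met-like primaries. Proc, the precursor of activated protein C, had 7.63, 7.48 and 7.52 in the liver metastases, against 7.28, 7.03, 6.96, 6.62 and 6.79 in the met-like primaries. The ranges did not overlap for any of them, although for Proc the highest primary, I-9812-MLP, came close to the lowest metastasis. The differences were 2.42 ± 0.15 for Serpind1 (adjusted p = 1.91e-10), 2.37 ± 0.18 for Serpinc1 (adjusted p = 4.07e-09) and 0.61 ± 0.14 for Proc (adjusted p = 0.00514). Pros1, the cofactor of activated protein C, had 8.29, 7.80 and 7.65 in the liver metastases, against 8.54, 7.77, 8.16, 9.54 and 7.98 in the met-like primaries. Its metastasis values lay within or below the primary range, where III-8016-MLP was the highest array, and the difference was not called (-0.48 ± 0.27, adjusted p = 0.258).

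All 3 genes of fibrinolysis were higher in liver metastases. Hrg, a histidine-rich protein that binds plasminogen and heparin, had 8.02, 7.73 and 7.53 in the liver metastases, against 4.60, 4.81, 4.50, 4.55 and 4.76 in the met-like primaries. Plg, plasminogen, had 9.08, 8.64 and 8.45 in the liver metastases, against 5.93, 5.84, 5.68, 5.79 and 5.82 in the met-like primaries. Serpinf2, the main plasmin inhibitor of plasma, had 8.85, 8.54 and 8.56 in the liver metastases, against 7.23, 6.72, 6.67, 6.94 and 7.02 in the met-like primaries. The groups did not overlap for any of these genes, and plasminogen, a protein that binds it and the inhibitor of its product were higher together. The differences were 3.12 ± 0.19 for Hrg (adjusted p = 1.91e-10), 2.91 ± 0.21 for Plg (adjusted p = 3e-09) and 1.73 ± 0.16 for Serpinf2 (adjusted p = 1.27e-07).

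All 9 measured complement members were higher in liver metastases, by 0.84 to 2.53. Cfi, the protease that inactivates the C3b and C4b fragments, had 8.59, 8.50 and 8.47 in the liver metastases, against 5.81, 6.08, 5.92, 5.89 and 6.23 in the met-like primaries. C8a had 8.58, 8.39 and 8.26 in the liver metastases, against 6.23, 6.22, 6.09, 6.22 and 6.06 in the met-like primaries. C9, which forms the wall of the membrane pore, had 7.50, 7.32 and 7.18 in the liver metastases, against 5.21, 5.21, 5.15, 4.99 and 5.27 in the met-like primaries. The metastases stood clear of the primaries for each of them, with differences of 2.53 ± 0.12 for Cfi (adjusted p = 3.91e-12), 2.25 ± 0.12 for C8a (adjusted p = 2e-11) and 2.17 ± 0.13 for C9 (adjusted p = 9.13e-11). C6, another pore component, differed by 1.65, C8b by 1.51 ± 0.21, and the proteases of the lectin pathway Masp1 and Masp2 by 1.40 and 0.99. Cfb, the protease of the alternative pathway convertase, differed by 1.24 ± 0.25 (adjusted p = 0.00182). Mbl2, mannose-binding lectin, had the smallest difference, 0.84 ± 0.18 (adjusted p = 0.00256). Its ranges touched, since II-648-MLP at 7.67 reached the lowest metastasis.

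The 6 plasma carriers were higher as well, with the largest median difference of the role classes, 4.50. Hpx, hemopexin, which binds heme, had 11.69, 11.50 and 11.39 in the liver metastases, against 6.57, 6.37, 6.15, 6.35 and 6.34 in the met-like primaries. Hp, haptoglobin, which binds hemoglobin, had 11.34, 11.29 and 10.96 in the liver metastases, against 7.13, 6.61, 6.83, 6.59 and 6.60 in the met-like primaries. Pzp, a broad protease inhibitor of the macroglobulin family, had 11.01, 10.53 and 10.26 in the liver metastases, against 6.08, 5.93, 5.98, 6.01 and 6.09 in the met-like primaries. The metastases exceeded the primaries by 5.17 ± 0.26 (Hpx, adjusted p = 1.23e-11), 4.44 ± 0.19 (Hp, adjusted p = 1.58e-12) and 4.58 ± 0.33 (Pzp, adjusted p = 2.08e-09). Ahsg, fetuin-A, which binds calcium phosphate mineral, differed by 4.56 ± 0.47, Apoh, a phospholipid-binding glycoprotein, by 3.43 ± 0.26, and Ambp, the precursor of bikunin, by 2.21 ± 0.20.

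**Figure D2:**
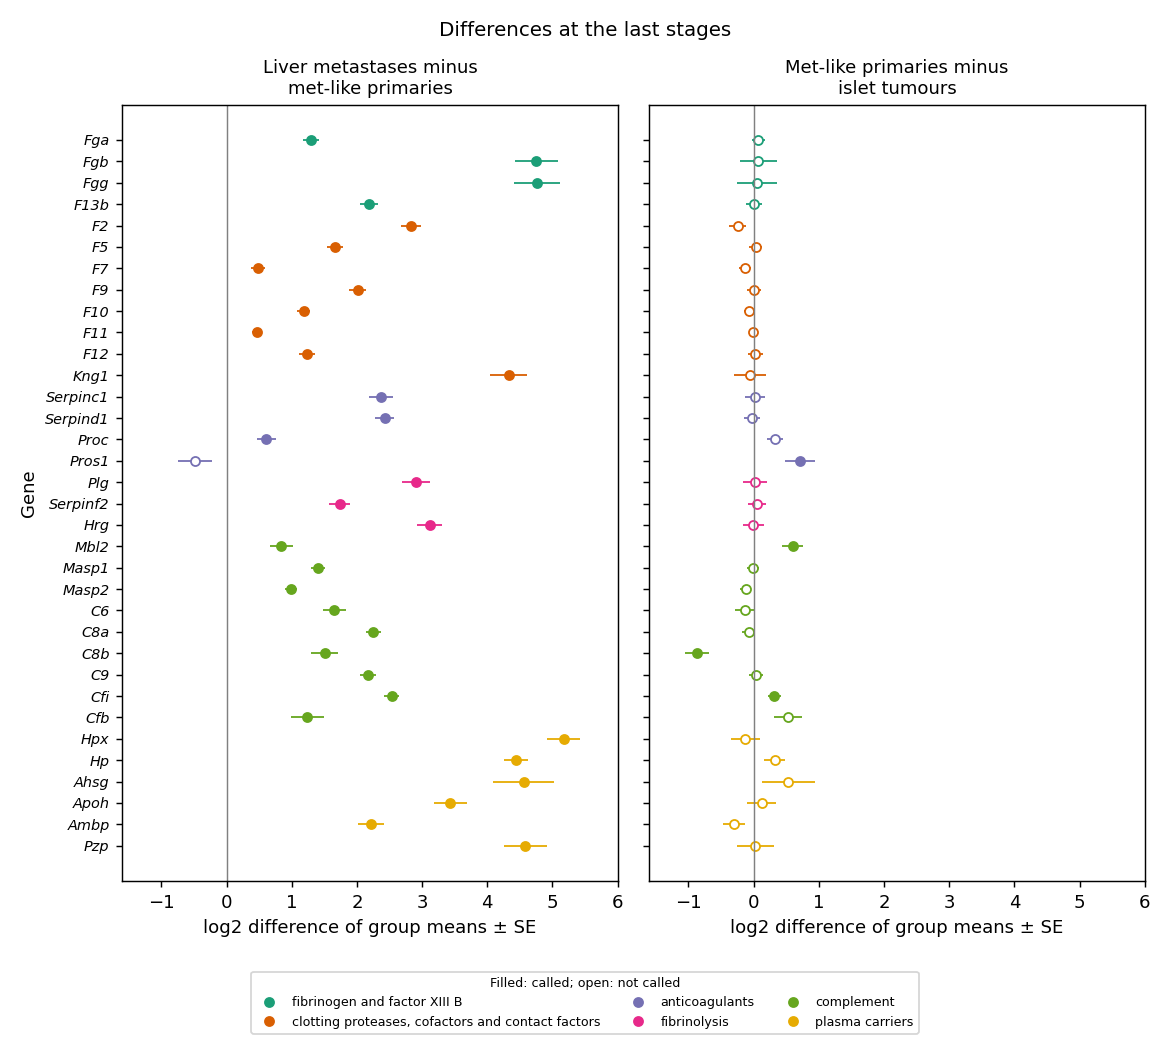
Difference of group means for each of the 34 genes on the log2 scale, with its SE, for liver metastases minus met-like primaries (left) and met-like primaries minus islet tumours (right); colours give the role and filled points were called. At left all filled points lie above 0 and only Pros1 is open, while at right 4 points are filled.

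Hepatocyte genes moved with these members. All 14 measured hepatocyte enzyme genes were called higher in liver metastases than in met-like primaries, where 7.8% of all genes were. Their median difference was 2.27, and among them were Cps1 of the urea cycle (4.09) and Tdo2 of tryptophan breakdown (3.52). The list mean lay between 7.91 and 8.64 in liver metastases and between 5.59 and 5.77 in met-like primaries. Vsig4, a complement receptor of liver macrophages, had 7.37, 7.25 and 7.19 in the liver metastases and lay between 4.56 and 5.04 in the met-like primaries. Of the 10 measured macrophage and Kupffer cell genes, 2 were called higher and 2 lower (7.8% and 7.87% of all genes), with a median of -0.01. Acinar genes, of the enzyme-secreting cells around the islets, went the other way. In liver metastases 4 of 6 were lower than in met-like primaries (median -2.01), where 7.87% of all genes were. All 6 were lower than in islet tumours (median -2.37), where 19.3% of all genes were. Their array mean lay between 9.84 and 10.82 in liver metastases, 10.68 and 12.95 in met-like primaries and 12.16 and 12.61 in islet tumours. With this mean as a covariate 33 members were called against met-like primaries and 31 against islet tumours. With the hepatocyte enzyme mean of each array as a covariate, 0 of the 34 members were called by limma and 10 passed an unadjusted p below 0.05. This mean separated the groups without overlap, and the part of hepatocyte RNA in the members' differences was not tested.

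The 3 liver metastases themselves differed in the level of the members. I-9820-Met was the highest of them for 33 of the 34 members, as for 30.2% of all genes, and I-9822-Met was the lowest for 24, as for 39.2% of all genes. I-9820-Met exceeded I-9822-Met for all 34 members, by a median of 0.39 (0.08 for F7 to 0.79 for C6). It also exceeded it for all 14 hepatocyte enzyme genes, by a median of 0.76 (0.19 for Hal to 1.40 for Hpd). The means of both sets fell from I-9820-Met over I-9821-Met to I-9822-Met, at 8.70, 8.43 and 8.30 for the members and 8.64, 8.16 and 7.91 for the enzyme genes. Single members did not all follow this order, and its cause was not tested. Leaving out any metastasis array kept all 33 calls in number, and with only arrays of title prefix I, where 1 met-like primary remained, 30 of the 33 were called.

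Against islet tumours, the primaries without the met-like label, liver metastases were higher for 33 of 34 members, where 36.6% of all genes were called and 17.3% were higher, and 0 members were lower by either the adjusted or the unadjusted p. The median difference was 2.09, against -0.03 over all genes, and Pros1 again was not called (0.23, adjusted p = 0.552). Hp differed by 4.77 (adjusted p = 2.21e-13) and Cfi by 2.85 (adjusted p = 3.19e-13). F7 (0.35, adjusted p = 0.0137) and C8b (0.64, adjusted p = 0.0189) were called although the ranges overlapped, and single arrays ended both calls. F7 was lost without I-9820-Met (adjusted p = 0.0825) or I-9822-Met (adjusted p = 0.0542), and C8b without I-9820-Met (adjusted p = 0.0972), II-649-tumor (adjusted p = 0.0517) or II-6415-tumor (adjusted p = 0.0508). With the title code as a block neither was called (adjusted p = 0.362 for F7 and 0.0538 for C8b). With the hepatocyte enzyme mean as a covariate, 3 of the 33 were called, namely Hp at 2.71 ± 0.41, Cfi at 2.07 ± 0.35 and Masp1 at 1.73 ± 0.37. This comparison and the one above share the metastasis arrays. Every metastasis array lay above all 19 other arrays for 29 of the 34 genes, as for 5.97% of all genes, the others being F7, Pros1, Mbl2, C8b and Cfb.

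Met-like primaries were compared with islet tumours to see which of these genes differed between the classes of primary tumour. Most members did not pass the test: 3 were higher, 1 was lower and 30 were not called, where 12.3% of all genes were called higher and 14.2% lower. The median difference was 0.02, against -0.02 over all genes. Members were thus called less often than all genes, of which 26.5% were called in either direction. However, 14 members had a mean outside the metastases below 6.196, the lower quartile of gene means, where a small difference could be missed. The 4 called genes came from the 9 complement members and the 4 anticoagulants, and whether calls favoured any role was not tested. Complement Mbl2 and Cfi were higher, C8b was lower, and the anticoagulant cofactor Pros1 was higher.

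Mbl2 had 6.69, 7.67, 6.75, 6.77 and 7.02 in the met-like primaries, against 6.45, 6.35, 6.48, 6.38 and 6.25 in the islet tumours. All met-like primaries lay above all islet tumours, II-648-MLP by the widest margin, and the difference was 0.60 ± 0.15 (adjusted p = 0.00567). Cfi had 5.81, 6.08, 5.92, 5.89 and 6.23 in the met-like primaries, against 5.69, 5.58, 5.67, 5.76 and 5.63 in the islet tumours. Its ranges did not overlap but lay close (0.32 ± 0.10, adjusted p = 0.02), and the adjusted p was 0.0683 without III-8023-MLP. Pros1 had 8.54, 7.77, 8.16, 9.54 and 7.98 in the met-like primaries, against 7.44, 7.94, 7.87, 7.73 and 7.43 in the islet tumours. The ranges overlapped, II-648-MLP lying below 2 tumours, and III-8016-MLP was the highest of all 22 arrays. The difference of 0.71 ± 0.23 (adjusted p = 0.0254) was 0.43 (adjusted p = 0.0581) without III-8016-MLP, and the call was also lost without I-9811-tumor (adjusted p = 0.0607), III-8024-tumor (adjusted p = 0.0619) or I-9812-MLP (adjusted p = 0.0546).

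C8b had 6.16, 6.41, 6.40, 6.10 and 6.21 in the met-like primaries, against 7.10, 6.67, 6.69, 7.28 and 7.88 in the islet tumours. All met-like primaries were below all islet tumours, and the difference of -0.87 ± 0.18 (adjusted p = 0.000792) went opposite to that of the other called members. Its neighbour C8a, which encodes the partner chain of the same C8 complex, differed by -0.08 (adjusted p = 0.682).

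The fibrinogen chains were not called between the tumour classes, with differences of 0.07 for Fgb (adjusted p = 0.912) and 0.05 for Fgg (adjusted p = 0.943). Their means in islet tumours and met-like primaries were 5.82 and 5.89 for Fgb and 5.08 and 5.13 for Fgg. All lay below 6.196, the lower quartile of gene means, so a small difference could be missed. The gene of albumin, Alb, was chosen for a closer look after its values had been seen. It had 9.67, 8.20, 7.61, 11.78 and 9.68 in the met-like primaries, against 7.80, 6.50, 6.04, 8.24 and 6.72 in the islet tumours, so that III-8016-MLP stood highest and II-6413-MLP lowest of the met-like primaries. That sample III-8016-MLP had Fgb at 5.95, Ahsg at 6.10 and Cps1 at 5.70, all within the range of the other met-like primaries. Angiogenic2006, with a similar Alb level of 11.30, had Fgb at 7.61, Ahsg at 8.47 and Cps1 at 7.23. Fgb, Ahsg and Cps1 were thus higher in Angiogenic2006 than in III-8016-MLP. For Pros1 (9.54) and F13b (5.10), however, III-8016-MLP was the highest met-like primary. This sets 1 array against 1, and the source of Alb in them was not tested. Of the 14 hepatocyte enzyme genes, 1 was called higher and 1 lower between the tumour classes (12.3% and 14.2% of all genes). All 9 beta cell genes were called lower in met-like primaries. Above all 5 islet tumours lay 12 members in I-9812-MLP, 7 each in II-648-MLP, II-6413-MLP and III-8023-MLP, and 4 in III-8016-MLP, the array of the highest Alb. The shares of all genes above the islet tumours were 21.8% in I-9812-MLP, 20.2% in II-648-MLP, 20.7% in II-6413-MLP, 21.9% in III-8023-MLP and 23.4% in III-8016-MLP, and Mbl2 and Cfi were among the members counted in each.

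**Figure D3:**
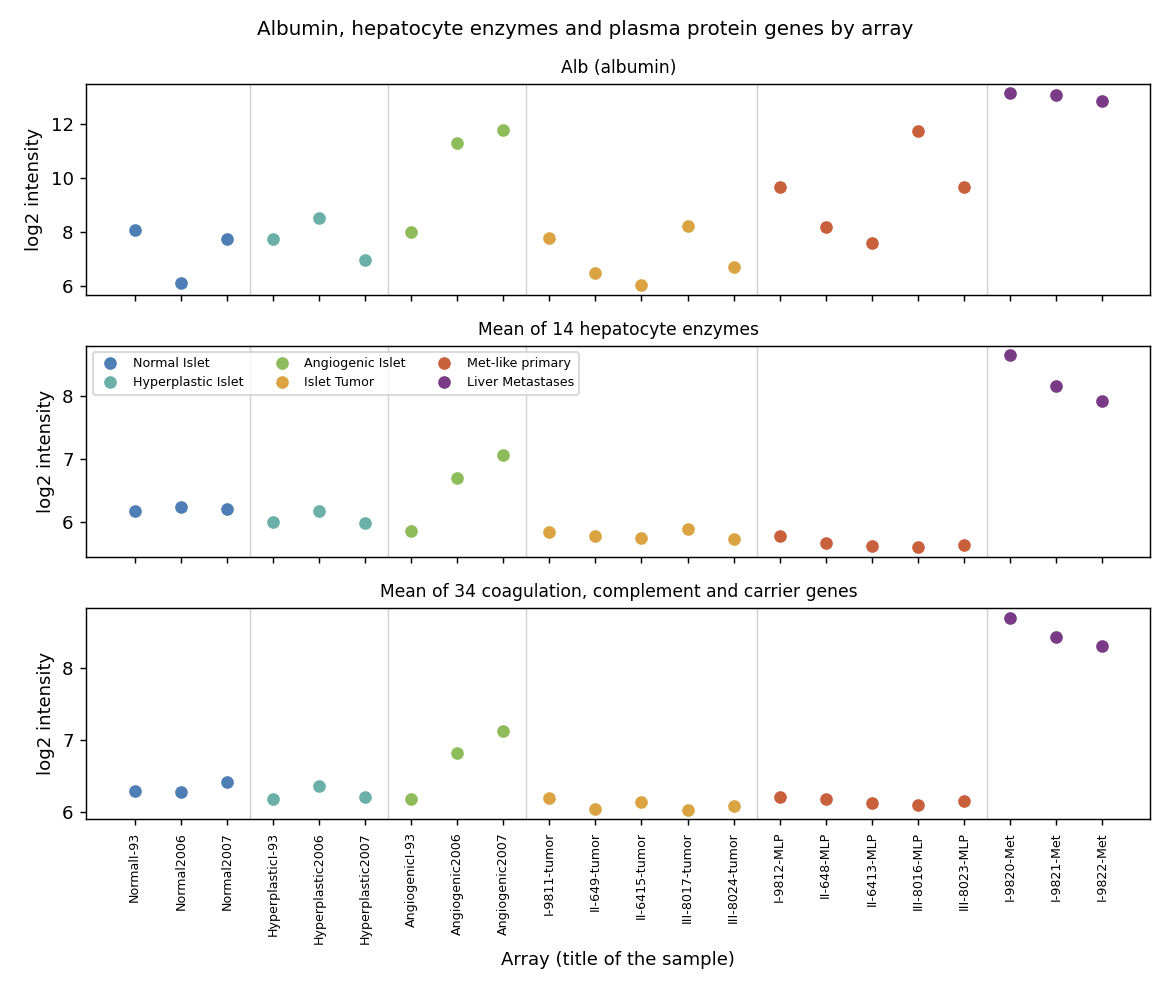
Log2 intensity on each of the 22 arrays, by tissue label from left to right, of Alb (top), of the mean of 14 hepatocyte enzyme genes (middle) and of the mean of the 34 coagulation, complement and carrier genes (bottom). The lower panels have the same shape, with Angiogenic2006, Angiogenic2007 and the liver metastases raised, whereas in the top panel the met-like primaries also reach up to 11.78.

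Islet tumours were compared with angiogenic islets, islets with new vessel growth before a tumour forms. Of the 34 members 14 were lower in islet tumours, where 6.45% of all genes were called lower and 3.09% higher. None of the members was called higher, 0 also at an unadjusted p below 0.05. The median difference was -0.45, against 0.05 over all genes. With the title code as a block, or in a fit of these groups only, 3 members were called, namely C8b, Cfi and Cfb in both. The groups shared only code I, in AngiogenicI-93 and I-9811-tumor, whose deviations from their group means correlated at -0.155. The block thus joined the groups only through arrays of that code. The 14 included Fgb and Fgg, Kng1, Plg and Serpinc1, 4 of the 9 complement members and 4 of the 6 carriers, with Ahsg falling by 2.01. Genes of other cell types were lower in the same comparison, 5 of 7 stellate cell and fibroblast genes (median -1.41), 4 of 8 endothelial genes and 2 of 10 macrophage genes, and their part in the members' differences was not tested.

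The 3 angiogenic samples differed from each other in most of these genes, and this bears on every number of the comparison. Fgb had 5.96, 5.85, 5.81, 5.64 and 5.86 in the islet tumours, against 6.05, 7.61 and 8.77 in AngiogenicI-93, Angiogenic2006 and Angiogenic2007. Fgg had 5.21, 5.14, 5.15, 4.95 and 4.93 in the islet tumours, against 5.27, 7.08 and 8.14 in the angiogenic islets. Ahsg had 6.35, 5.86, 5.91, 6.30 and 5.74 in the islet tumours, against 6.09, 8.47 and 9.56 in the angiogenic islets. AngiogenicI-93 sat close to or among the tumours for these genes, and the other angiogenic arrays were far above. The differences were -1.65 ± 0.33 for Fgb (adjusted p = 0.0028), -1.76 ± 0.35 for Fgg (adjusted p = 0.00325) and -2.01 ± 0.47 for Ahsg (adjusted p = 0.00975). The calls of Fgb and Fgg were lost with the title code as a block (adjusted p = 0.117 and 0.12) and in a fit of these groups only (adjusted p = 0.0773 and 0.0778). Without Angiogenic2006 and Angiogenic2007 they were -0.23 for Fgb (adjusted p = 0.471) and -0.19 for Fgg (adjusted p = 0.624), on a single angiogenic array assumed to vary like the other groups.

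The hepatocyte enzyme genes followed the same arrays. Their mean was 5.85 in AngiogenicI-93, 6.69 in Angiogenic2006 and 7.05 in Angiogenic2007, against 5.97 to 6.16 in hyperplastic islets. Cyp2e1, a cytochrome of hepatocytes, had 5.65, 7.76 and 8.76 in these angiogenic samples. Alb had 8.02, 11.30 and 11.81 in them. Set against the mean of hyperplastic islets, Angiogenic2006 was higher for 33 of 34 members (median 0.43) and 12 of 14 enzyme genes (median 0.47). Angiogenic2007 was higher for 31 of 34 members (median 0.58) and 13 of 14 enzyme genes (median 0.78). AngiogenicI-93 was higher for 8 of 34 members (median -0.16) and 3 of 14 enzyme genes (median -0.25). What the hepatocyte genes contribute to the members' levels in these samples was not tested.

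**Figure D4:**
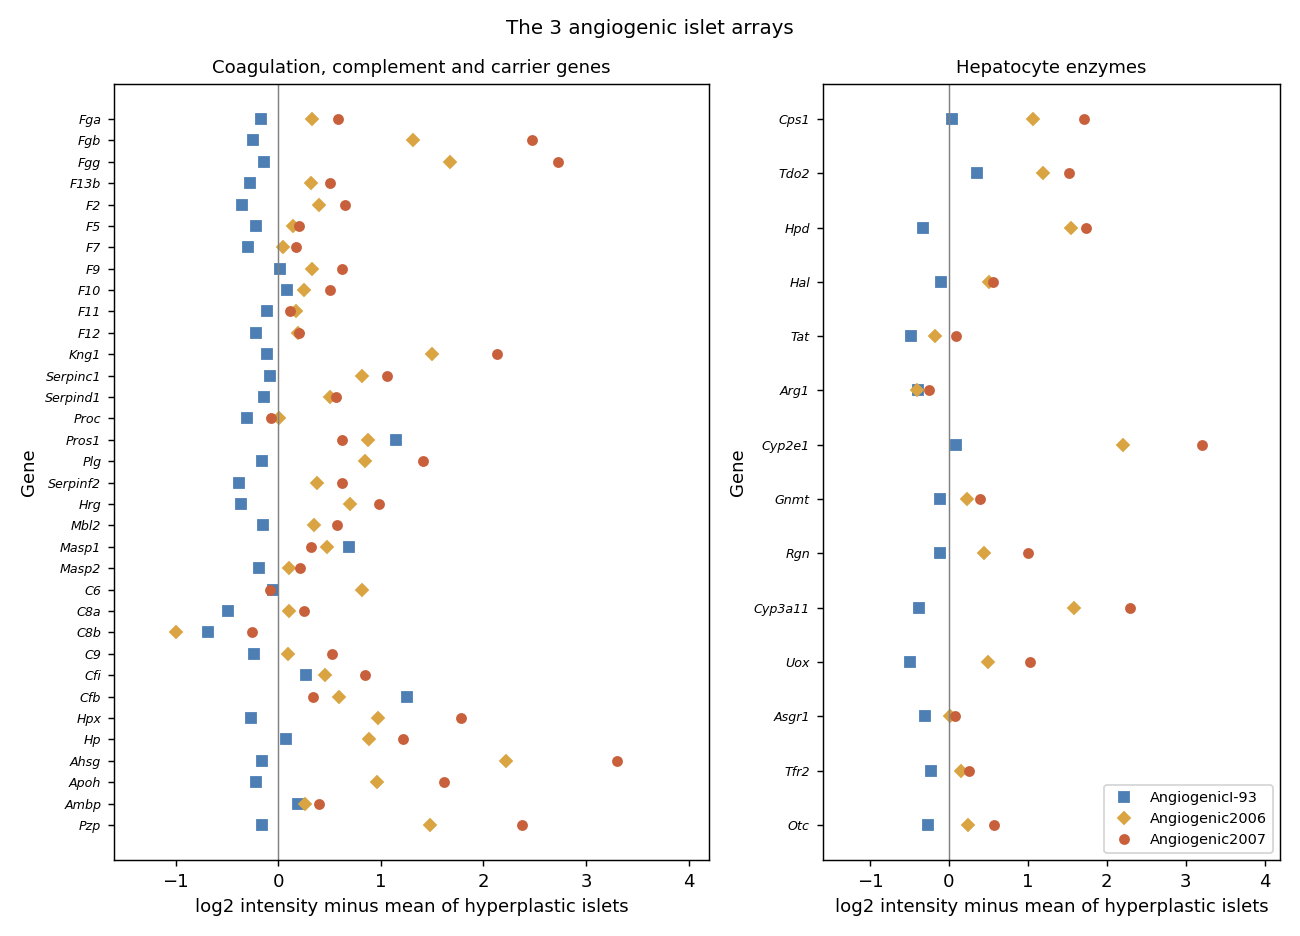
Log2 intensity of each gene in each of the 3 angiogenic islet samples minus the mean of the 3 hyperplastic islet samples, for the 34 coagulation, complement and carrier genes (left) and 14 hepatocyte enzyme genes (right). Angiogenic2006 and Angiogenic2007 lie right of 0 for most genes of both panels, up to 3.30 for Ahsg, while AngiogenicI-93 lies near or left of 0 except for Pros1, Masp1 and Cfb.

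Cfb, C8b and Cfi had the smallest adjusted p among the complement genes in this comparison. Cfb had 7.30, 6.90, 6.99, 7.65 and 7.80 in the islet tumours, against 9.10, 8.43 and 8.18 in the angiogenic islets. C8b had 7.10, 6.67, 6.69, 7.28 and 7.88 in the islet tumours, against 8.33, 8.02 and 8.76 in the angiogenic islets. Cfi had 5.69, 5.58, 5.67, 5.76 and 5.63 in the islet tumours, against 6.02, 6.21 and 6.60 in the angiogenic islets. For Cfb AngiogenicI-93 was the highest angiogenic array, and for all of these genes every islet tumour lay below every angiogenic islet. The differences were -1.24 ± 0.25 for Cfb (adjusted p = 0.00356), -1.25 ± 0.21 for C8b (adjusted p = 0.000613) and -0.61 ± 0.12 for Cfi (adjusted p = 0.00191). Without Angiogenic2006 and Angiogenic2007, 4 members were called, Masp1, C8b and Cfb among the 14 and C8a in addition, as higher in islet tumours. In that fit, with AngiogenicI-93 as the only angiogenic array, Cfi differed by -0.36. The reason for its smaller difference was not tested. With the hepatocyte enzyme mean as a covariate the same 4 genes were called, and Cfi was not (-0.37, adjusted p = 0.137). Without AngiogenicI-93, 21 members were called, 13 of them among the 14. Without Angiogenic2006 5 were called and without Angiogenic2007 6, C8b, Cfi, Cfb, Fgb and Fgg in both cases.

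Angiogenic islets were compared with hyperplastic islets to follow the members over the onset of vessel growth. Masp1 and Cfi were called higher, 2 of 34 members, where 2.29% of all genes were called higher, and 17 members were higher at an unadjusted p below 0.05. The median difference was 0.30, against -0.04 over all genes. Masp1 had 6.87, 6.66 and 6.50 in the angiogenic islets, against 6.14, 6.14 and 6.27 in the hyperplastic islets. Cfi had 6.02, 6.21 and 6.60 in the angiogenic islets, against 5.68, 5.66 and 5.92 in the hyperplastic islets. Neither gene overlapped, and the differences were 0.49 ± 0.12 for Masp1 (adjusted p = 0.0325) and 0.52 ± 0.13 for Cfi (adjusted p = 0.0289). Masp1 was highest in AngiogenicI-93, the array low for most other members.

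Samples of the same title code were treated as paired across the islet groups. For the fits of this paragraph the share of all genes called was not counted. With the code as a block 6 members were called. Besides Masp1 and Cfi these were Fgg (1.42 ± 0.35, adjusted p = 0.032), Kng1 (1.17 ± 0.27, adjusted p = 0.0209), Hp (0.73 ± 0.17, adjusted p = 0.0213) and Pzp (1.23 ± 0.32, adjusted p = 0.0448). Within the pairs, Fgg differed by 1.57 in Angiogenic2006 and 2.89 in Angiogenic2007 but by -0.19 in AngiogenicI-93, each against its hyperplastic partner. In AngiogenicI-93 the pair differences of Kng1, Hp and Pzp were 0.20, 0.12 and 0.05, so that the size of these genes' differences lay in the pairs of Angiogenic2006 and Angiogenic2007, the arrays with raised hepatocyte enzyme genes. In the fit without the block, single arrays decided the count of 2. Without AngiogenicI-93 it was 14, without Angiogenic2007 it was 1, and without Angiogenic2006 it was 0 (15 at an unadjusted p below 0.05). It was 0 without HyperplasticI-93 or Hyperplastic2006 (14 and 20 at the unadjusted p) and 1 without Hyperplastic2007. Without both Angiogenic2006 and Angiogenic2007, Masp1 stayed higher and C8a was called lower.

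Above all 6 normal and hyperplastic islet arrays lay 3 members in AngiogenicI-93 (Pros1, Masp1 and Cfb), 22 in Angiogenic2006 and 25 in Angiogenic2007. The shares of all genes above those arrays were 17.9%, 17.2% and 15.1%. Pros1 had 8.47, 8.20 and 7.94 in the angiogenic islets, against 7.33, 7.27 and 7.37 in the hyperplastic islets. All angiogenic arrays were above the hyperplastic ones, but the difference was not called (0.88 ± 0.30, adjusted p = 0.154). Other cell types moved in the same comparison, where 2.29% of all genes were called higher. Called higher were 5 of 7 stellate cell and fibroblast genes, 4 of 10 macrophage genes and 3 of 8 endothelial genes.

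Hyperplastic islets differed from normal islets in 1 of the 34 members, where 4.46% of all genes were called higher and 4.17% lower. C8b had 9.06, 8.92 and 9.08 in the hyperplastic islets, against 9.66, 10.13 and 10.12 in the normal islets. All hyperplastic arrays lay below all normal ones (-0.95 ± 0.23, adjusted p = 0.0107), and the adjusted p was 0.0584 without Normal2006 and 0.0527 without Normal2007. With the title code as a block Cfi was called too, lower in hyperplastic islets by -0.32 ± 0.10 (adjusted p = 0.0432). The median member differed by -0.04, against -0.01 over all genes.

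C8b and Cfi were each called in 5 of the 6 comparisons, Cfi in all but hyperplastic against normal islets. C8b was called in all but angiogenic against hyperplastic islets, where it was lower without overlap (-0.65 ± 0.23, adjusted p = 0.186). The comparisons share groups, and the share of all genes called as often was not counted. In fits of the compared groups only, Cfi lost its call between angiogenic and hyperplastic islets (adjusted p = 0.13). C8b lost that between liver metastases and islet tumours (adjusted p = 0.0636). The mean of C8b was 9.97 in normal islets, 9.02 in hyperplastic islets, 8.37 in angiogenic islets, 7.12 in islet tumours, 6.26 in met-like primaries and 7.76 in liver metastases. Neighbouring groups in this order thus stepped down without overlap as far as the met-like primaries. The metastases lay within the range of the islet tumours apart from 7.96 in I-9820-Met. C8a had means of 6.11, 6.21, 6.17, 6.24, 6.16 and 8.41 in the same order, and its difference was called for liver metastases alone. Outside the metastases its means lay near 6.196, the lower quartile of gene means, where a small difference could be missed. The mean of the 9 beta cell genes was also lower in met-like primaries (8.44 to 9.06) than in normal islets (11.58 to 11.63). In liver metastases, however, C8b was higher than in islet tumours, while 8 of the 9 beta cell genes were called lower (19.3% of all genes). Between hyperplastic and normal islets, where C8b was called, 0 of the 9 were. Whether C8b follows the beta cells was not tested.

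**Figure D5:**
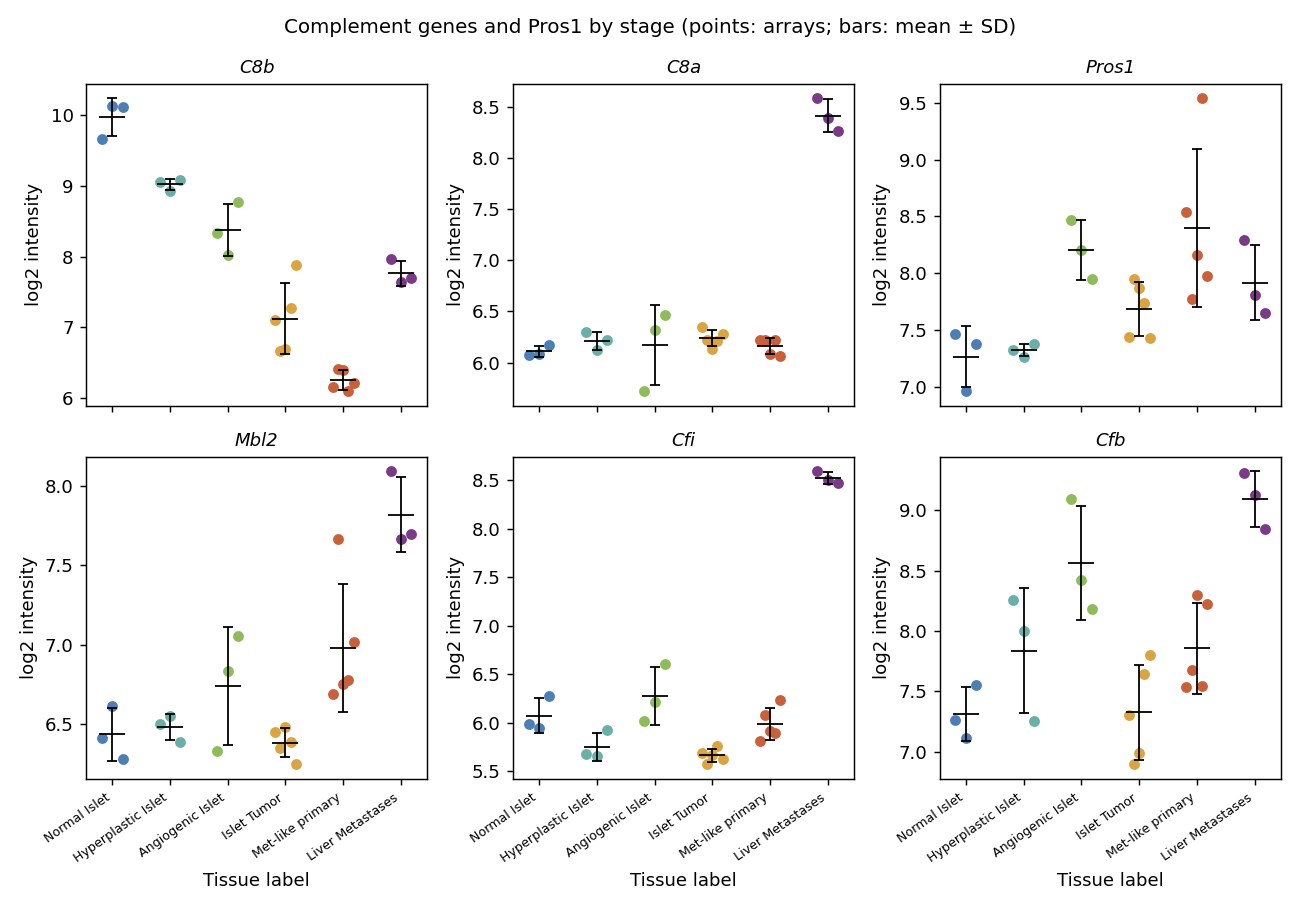
Log2 intensity of 6 genes on each array (points) by tissue label, with group mean and SD (bars). Each panel has its own axis. C8b steps down from a mean of 9.97 in normal islets to 6.26 in met-like primaries, C8a is level until the liver metastases, and Pros1 is highest in 1 met-like primary at 9.54.

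Other genes of clotting went in both directions. Of 22 measured genes, for receptors, vessel wall and maturation proteins and some further plasma factors, 2 were higher and 2 lower in liver metastases than in met-like primaries, with a median of -0.07, where 7.8% of all genes were higher and 7.87% lower. Proz, a liver cofactor of the factor X inhibitor, was higher by 0.63 and F8 by 0.35, while the protein C receptor Procr was lower by 0.61 and Ggcx by 0.42. Ggcx makes the vitamin K-dependent carboxylation that F2, F7, F9, F10, Proc and Pros1 proteins need, and Lman1 ships factors V and VIII out of the endoplasmic reticulum. In met-like primaries against islet tumours, 3 of the 22 were higher and 6 lower, where 12.3% of all genes were higher and 14.2% lower. Ggcx was lower by 1.40 ± 0.12 (adjusted p = 1.83e-08), with 8.58, 8.62, 9.14, 8.77 and 8.39 in the met-like primaries, against 9.91, 9.91, 10.40, 10.14 and 10.12 in the islet tumours. Habp2, a plasma protease able to act on factor VII, was higher by 2.16 ± 0.17 (adjusted p = 2.37e-09), with 9.83, 9.43, 8.81, 9.11 and 9.99 in the met-like primaries, against 7.40, 7.11, 7.18, 7.41 and 7.24 in the islet tumours. Neither overlapped, and both carried over to the liver metastases, where they differed from islet tumours by -1.82 and 2.36. In angiogenic against hyperplastic islets 5 of the 22 were higher, where 2.29% of all genes were higher, among them Vwf of endothelium by 0.95, Anxa2 by 1.00, Plau by 0.65 and Tfpi2 by 0.67.

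Among 24 other complement genes, 6 were higher and 6 lower in liver metastases than in met-like primaries (7.8% and 7.87% of all genes). The higher ones included Hc, complement C5, with 8.79, 8.61 and 8.34 in the liver metastases and 5.18 to 5.45 in the met-like primaries (3.22 ± 0.12, adjusted p = 6.66e-13). Vtn, vitronectin, which restrains the membrane pore, was higher by 3.18 ± 0.15 and C8g, the third C8 chain, by 0.90 ± 0.10. C4bp, an inhibitor of the classical convertase, was higher in met-like primaries than in islet tumours, by 2.07 ± 0.23 (adjusted p = 5.18e-07). Clu, a second inhibitor of pore assembly, was higher there by 1.72 ± 0.21. In angiogenic against hyperplastic islets 9 of the 24 were higher (2.29% of all genes), among them C1qb (0.84), C1qc (0.95) and C4b (1.00), which macrophages or stromal cells can also make.

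Of 25 other plasma and acute phase genes, 19 were higher and 1 lower in liver metastases than in met-like primaries, with a median of 1.59 (7.8% and 7.87% of all genes). Mug1 was higher by 4.05, Orm1 by 2.96 and Itih3 by 2.56. In met-like primaries against islet tumours 8 were higher (12.3% of all genes), with Rbp4 at 2.49 ± 0.19, Trf at 1.91 ± 0.23, Crp at 1.65 ± 0.19 and Ttr at 1.57 ± 0.12, while Mug1, Orm1 and Itih3 were not called. Of 19 liver transcription factor and signalling genes, 5 were higher and 4 lower in the same comparison (12.3% and 14.2% of all genes). Hnf4a was higher by 0.61 ± 0.09 (adjusted p = 1.23e-05) and the bile acid receptor gene Nr1h4 by 1.65 ± 0.20, whereas Foxa3 was lower by 1.10 ± 0.13 and Il6ra, the receptor of the acute phase signal, by 1.69 ± 0.13. In liver metastases Nr1i3 was higher than in met-like primaries by 0.92 ± 0.10 (adjusted p = 1.63e-06).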

How the data were processed

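The deposited table holds log2 intensities of 35511 probe sets on 22 arrays, normalized by the authors with aroma.affymetrix per the series' design text; its version and settings were not in the sources used here. RNA was TRIzol-purified and labelled by a whole-transcript protocol, per the labels' protocols. A platform table listed 23410 probe sets, of which 21789 had 1 gene symbol and 1621 several. The highest-mean probe set of each gene was kept (19938 genes, 999 of them with several), with no filter on dim genes. The number of arrays limits the precision.

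All arrays were fitted together in limma 3.58.1 (R 4.3.3) with 1 mean per tissue label, moderated two-sided tests and Benjamini-Hochberg adjustment over all genes; calls needed an adjusted p below 0.05. Errors of differences are SEs. On simulated data for liver metastases against met-like primaries, 97% of 100 log2 changes of 1 and 100% of 100 changes of 2 were recovered among 19938 genes, with 7 false calls.

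The genes, lists and comparisons were chosen with earlier results of these data known. Array values are given for up to 3 members per role with the smallest adjusted p between liver metastases and met-like primaries, each member not called there, and up to 4 members in every other comparison. Other genes are named from the lists, up to 4 per list and comparison. Ahsg in angiogenic islets, C8a, Alb and Cyp2e1 were singled out after their values were seen.

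Whether title codes pair samples was checked by correlating deviations from group means across genes. Same-coded arrays gave 0.197 to 0.448 for hyperplastic and normal islets and 0.353 to 0.479 for angiogenic and hyperplastic islets. Other codes gave -0.368 to -0.0583 and -0.393 to -0.0624, in part because deviations sum to 0 within a group. Same-coded islet samples were thus treated as paired, though the labels do not say what they share. Metastasis and tumour arrays gave values on both sides of 0 and were not taken as paired. Alternatives were a fit of the compared groups only, the code as a block, quantile normalization, median centring, a filter leaving 15918 genes, other probe set rules, array weights, trended variance, a log2 threshold of 1, hepatocyte and acinar means as covariates, and leaving out each array. Fits on title prefixes, and without Angiogenic2006 and Angiogenic2007, were added after seeing the data. Promoters came from RefSeq (GRCm38.p6). Figures were drawn with matplotlib 3.10.9.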

Additional observations from a re-analysis of the deposited data

Results flagged for a closer look

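In groups of 5 arrays, a member was looked at again where its highest or lowest array lay far from the rest of its group, and 2 of the 68 member and group pairs met this rule; chance gives about 1 in 20. F9 measured 4.573 in II-6413-MLP, against 4.393 to 4.441 in the other met-like primaries, a gap of 0.737 of the group's range. Ambp measured 7.695 in III-8016-MLP, the array with the highest Alb and Pros1 of the met-like primaries, against 8.109 to 8.24 in the others, a gap of 0.759 of the range. Both genes were below the liver metastases in every met-like primary.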

How the results depend on the processing

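Of the 87 member differences called, the alternatives kept direction and call in 1608 recomputed values, kept direction without the call in 202 and turned it in 16. Members called between liver metastases and met-like primaries numbered 33 of 34 and stayed at 33 without any single array; 21 were called when tested against a log2 difference of 1, and 0 were called with the hepatocyte enzyme mean as a covariate. With that covariate the estimates of F7 (-0.45), F11 (-0.077), Proc (-0.0536), Plg (-0.13), Serpinf2 (-0.17), Mbl2 (-0.65), Ahsg (-1.13) and Apoh (-0.0691) turned below 0. None of these was called (adjusted p = 0.761 to 0.989). The covariate separated the groups without overlap, so this fit cannot tell the direction of these genes. Against islet tumours, 31 to 33 were called without single arrays and 3 with the covariate. It turned F7 (-0.53), F11 (-0.0522), Serpinf2 (-0.0159) and Ahsg (-0.29), none of them called (adjusted p = 0.463 to 0.988). For met-like primaries against islet tumours the count of 4 was 3 to 5 without single arrays, 8 with the covariate and 0 against a log2 difference of 1. For islet tumours against angiogenic islets the count of 14 was 5 to 21 without single arrays, 3 in a fit of these groups only, 3 with the replicate block (C8b, Cfi and Cfb), 4 with the covariate (Hpx turned to 0.12), 0 against that difference and 4 without Angiogenic2006 and Angiogenic2007 (Kng1 turned to 0.11, Hpx to 0.25 and Pzp to 0.0137). For angiogenic against hyperplastic islets the count of 2 was 0 to 14 without single arrays, 1 in a fit of these groups only, 6 with the replicate block, 4 after quantile normalization, 6 with array weights, 1 with the covariate and 0 against that difference. For hyperplastic against normal islets the count of 1 was 0 to 1 without single arrays, 2 with the replicate block and 0 against that difference. In the tests against a log2 difference of 1, the unadjusted counts behind these zeros were 0, 3, 0 and 0. The block dropped F7 (adjusted p = 0.143) and Proc (adjusted p = 0.0893) between liver metastases and met-like primaries. The causes of these changes were not tested, and the share of all genes called by each alternative was not counted. Of the members, 14 had a mean outside the metastases below 6.196, the lower quartile of gene means.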
